A study of Mus with 5 samples.

Results

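Purinergic and NAD signalling is represented here by 8 genes, P2rx7, P2rx4, Entpd1, Nt5e, Art2b, Cd38, Adora2a and Adora2b, and by the places where the retinoic acid receptor RARα and the transcription factor BATF were bound near them in mouse CD8 T cells. A peak was taken as theirs when the authors' annotation named 1 of the 8 genes for it. This gave 32 peaks of 27480 in the 4 peak lists, of which 7 came from RARα without retinoic acid (RA), 4 from RARα with RA, 14 from BATF without RA and 7 from BATF with RA. The 8 genes are a set assembled by pathway and not by a measured value, but with earlier results of these data known, so that their counts are described and not tested.

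The cells were wild-type primary CD8 T cells from spleen that had received anti-CD3 and anti-CD28 in IL-2 for 24 h and had been rested for a further 24 h. The control cells then stayed without RA, and the others were given 50 nM RA for 1 h. The labels call the cells naive, and their treatment fields name other interleukins than the protocol does. In chromatin immunoprecipitation with sequencing (ChIP-seq), an antibody pulls down the DNA to which a protein is attached, and places where fragments pile up over the level of a control antibody (IgG) are called as peaks. Each list had been called on 2 pooled alignment files against 1 IgG file common to the 4 lists, so there is 1 list per condition, no spread between replicates and no test between conditions.

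Extracellular ATP is a danger signal that opens ion channels of the P2X family, and on T cells the P2rx7 channel can lead to shedding of surface proteins, pore formation and death. Ectonucleotidases strip the phosphates from ATP in steps, Entpd1 (CD39) to AMP and Nt5e (CD73) from AMP to adenosine, which acts on the receptors of the Adora genes and dampens T cell responses. Extracellular NAD feeds the same channel in the mouse, since the ecto-enzyme of Art2b transfers ADP-ribose from NAD to P2rx7 and opens it, while Cd38 degrades NAD. RARα is a nuclear receptor that binds DNA with and without its ligand RA, and BATF is a factor of the AP-1 family that drives effector differentiation.

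RARα peaks were found at 4 of the 8 genes without RA (P2rx7, Nt5e, Art2b and Entpd1) and at 2 with RA (P2rx7 and Nt5e). BATF peaks were found at 6 genes without RA and at 4 with RA. P2rx7 had RARα peaks in both lists and no BATF peak in either. P2rx4, Cd38 and Adora2a had BATF peaks only, and Adora2b had no peak at all. Among 21896 protein-coding genes, a peak was assigned to 7.18% in the RARα control list, 3.19% in the RARα RA list, 48.6% in the BATF control list and 38.2% in the BATF RA list. RARα peaks had been called at a p-value cutoff of 0.001 and BATF peaks at 1e-05, so the 2 factors are counted at unlike cutoffs. At a p-value of at most 1e-05, 5 RARα control peaks at 3 genes (without Entpd1) and 3 RARα RA peaks at 2 genes remained.

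**Figure D1:**
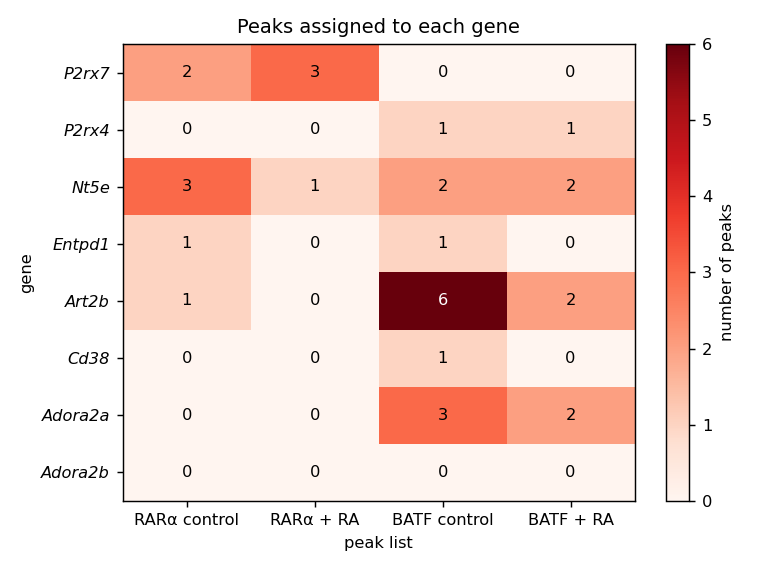
Number of peaks assigned to each of the 8 genes (rows) in each of the 4 peak lists (columns), with darker cells for more peaks. P2rx7 holds 2 and 3 RARα peaks and no BATF peak, Art2b holds 6 BATF control peaks, and Adora2b holds none in any list.

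When overlapping peaks were joined, the 32 peaks formed 20 sites, 6 with RARα alone, 11 with BATF alone and 3 with both. Of the 9 sites with RARα, 2 were called in both conditions, 5 in the control alone and 2 with RA alone. Over the whole lists, 8.45% of RARα control peaks overlapped a RARα RA peak, and 16.6% the other way round. The 14 sites with BATF were called in both conditions at 7 and in the control alone at 7. None was called with RA alone. Of all BATF control peaks 54.4% overlapped a BATF RA peak, and 93.6% the other way round. The RA pool of BATF held 16424269 fragments, 71.1% of the 23110180 in its control pool, whereas the RARα pools were nearly equal (22475060 with RA and 22655611 without, 99.2%). For each site missing from 1 list, the number of fragments that a call would have needed there was therefore worked out from the rule of the peak caller, at the IgG level of the site in the other list. This level is itself uncertain, since at the sites called in both conditions it differed from the one carried over by up to 1.38 times for RARα (P2rx7) and 1.23 times for BATF (Adora2a). With the carried-over level raised by these factors, the count expected at an equal rate stayed above the count needed at 4 of the 7 RARα sites and 6 of the 7 BATF sites called in 1 condition. It did not at 2 sites of P2rx7 (intron 1 and exon 2) nor at the RARα and BATF sites of Entpd1. Elsewhere, too, a gap of a few fragments between the count expected and the count needed is within counting error. The fragments given below were counted at the summit of a peak, with exact Poisson 95% intervals that cover counting error only. Fold enrichment is the summit level over the local IgG level, each with 1 added.

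P2rx7, the ATP-gated channel, lies on mm10 at chr5:122643927-122692336. Its strongest RARα peak was called in both conditions, at chr5:122645213-122645607 in the control and chr5:122645229-122645574 with RA, 1516 and 1543 bp into the gene from the end where its exon numbering begins. The annotation classed it as promoter and placed it in a LINE repeat of the L1MB8 kind. It held 44 fragments in the control (32.0 to 59.1) and 49 with RA (36.3 to 64.8). With each count divided by the fragments of its pool, the RA level was 1.12 times the control level (0.732 to 1.73), an interval that includes 1. The fold enrichment, in contrast, was 5.66 in the control and 4.61 with RA, as the IgG level that the caller set was 6.95 in the control and 9.85 with RA. The peak stood in the 93.2 and 93.8 percentile of fold in the 2 lists. Its IgG level was 2.41 times the lowest in the control list and 3.33 times the lowest in the RA list, in the 93.4 and 96.0 percentile of those lists. The part of this raised IgG level in the peak was not tested.

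The other P2rx7 peaks were weaker and were called in 1 condition each. The control list had a peak at chr5:122652713-122652964 in exon 2, which is 8786 bp from the end of the gene, with 13 fragments and a fold of 3.11. A call with RA would have needed 11 fragments there, and the control rate would have given 12.9. The RA list had a peak at chr5:122644424-122644700 in intron 1, with 12 fragments and a fold of 2.93, and another in an intron at chr5:122669165-122669557, in a B4A SINE repeat, with 14 fragments and a fold of 3.79. In the control these would have needed 10 and 9 fragments, against 12.1 and 14.1 at the RA rate. The fragments in a list without a call are not given by the peak lists, so whether the conditions differed at these 3 sites is not known. At the strongest site, called in both lists, the fragments did not differ beyond counting error. The nearest BATF peak to the gene in either list was the one at P2rx4, 15209 bp away, and from the strongest RARα peak it was 30573 bp away in the control in the other direction. Of the 1572 protein-coding genes with a RARα control peak, 257 (16.35%) lacked BATF peaks in both lists. Of these, 47 (2.99% of the 1572) had a RARα RA peak as well, P2rx7 among them. No other gene of the 21896 had the same 4 counts of peaks as P2rx7.

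P2rx4 encodes a sister channel and lies next to P2rx7, at chr5:122707518-122729739. It had the reverse pattern, with BATF and no RARα. The BATF peak at its exon 1, from 122707545 to 122708008 in the control and to 122707989 with RA, held 28 fragments in the control (18.6 to 40.5) and 20 with RA (12.2 to 30.9). Scaled to the depth of the pools, the RA level was 1.01 times the control level (0.537 to 1.85). This interval includes 1. The fold was 6.57 and 6.63. The nearest RARα peaks were those of P2rx7, 54554 bp away in the control and 37961 bp with RA. A further BATF peak lay 2344 bp past the gene in the control (20 fragments, fold 5.35) and 2664 bp with RA (18 fragments, fold 4.13), and was annotated to Camkk2, a kinase gene.

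**Figure D2:**
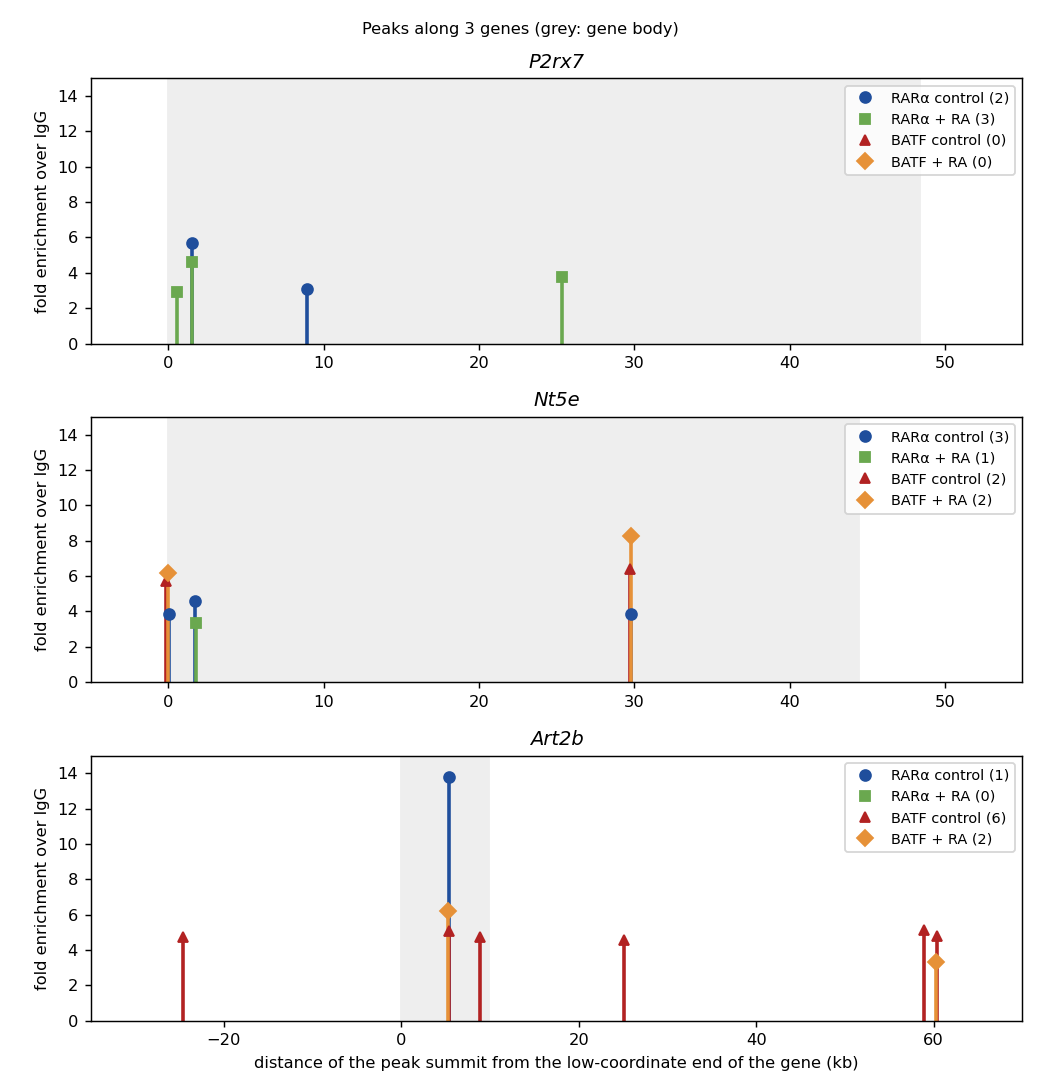
Fold enrichment over IgG of each peak against the distance of its summit from the low-coordinate end of P2rx7, Nt5e and Art2b (kb), with the gene body in grey and the number of peaks per list in the legends. RARα stands alone at P2rx7, RARα and BATF stand together at the promoter and in intron 3 of Nt5e and at the promoter of Art2b, and the RARα control peak of Art2b is the highest at 13.8.

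Nt5e, which makes adenosine from AMP, lies at chr9:88327609-88372089 and had 8 peaks, in all 4 lists. At its promoter and exon 1, a RARα control peak (chr9:88327547-88328184) held 14 fragments (7.65 to 23.5) with a fold of 3.86. It shared 344 bp with a BATF control peak at chr9:88327344-88327890, and the summits were 150 bp apart. The RARα peak was not called with RA, where 9 fragments would have sufficed and the control rate would have given 13.9. The BATF peak was called in both conditions, with 22 fragments in the control and 18 with RA, or 1.15 times the control when scaled to depth (0.582 to 2.25), and folds of 5.72 and 6.20.

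The same arrangement was found in intron 3 of Nt5e, 29813 bp into the gene at the RARα summit. Here the RARα control peak (chr9:88357268-88357598) also held 14 fragments with a fold of 3.86, and shared 292 bp with a BATF control peak at chr9:88357253-88357559 whose summit was 76 bp away. With RA the RARα peak was absent, again with 9 fragments needed and 13.9 given by the control rate. BATF held 24 fragments in each condition, which made 1.41 times the control when scaled to depth (0.765 to 2.59), and its fold was 6.40 without and 8.26 with RA. The latter stood in the 84.2 percentile of the BATF RA list. Both of these RARα peaks rest on few fragments.

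The remaining RARα site of Nt5e lay in intron 1, at chr9:88329021-88329610, with its summit 1700 bp into the gene. It was called in both conditions, with 40 fragments in the control (28.6 to 54.5) and 22 with RA (13.8 to 33.3). The ratio of RA to control, scaled to depth, was 0.554 (0.314 to 0.956), and the fold was 4.59 and 3.33. Of the sites called in both conditions, 2 for RARα and 7 for BATF, this was the only one where the counting interval of the ratio left out 1. The interval compares 2 pools and not the conditions. No BATF peak overlapped this site, and the nearest was 1131 bp away in the control and 1361 bp from the RA peak. As at P2rx7, the IgG level was high, 7.94 in the control (2.76 times the lowest of the list) and 5.91 with RA. Both RARα sites that were called in each condition thus had an IgG level above that of most peaks of their lists. Its part in their calls was not tested. A strong BATF peak 7737 bp past Nt5e (68 fragments, fold 9.74 in the control, and 36 fragments, fold 6.96 with RA) was annotated to Snx14. No other protein-coding gene shared the 4 counts of Nt5e.

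Entpd1, the ectonucleotidase that acts before Nt5e, lies at chr19:40612366-40741602. It had 1 RARα and 1 BATF peak in the control and none with RA, and all were weak. The RARα peak (chr19:40687146-40687394), in an intron and a B1 SINE repeat, had 16 fragments (9.15 to 26.0) over an IgG level of 5.96. Its fold of 2.44 was in the 6.61 percentile of the list. A call with RA would have needed 15 fragments, and the control rate would have given 15.9, so that the absence of this peak was not detectable as a difference at this depth. The nearest RARα RA peak was 3719917 bp from the gene. The BATF peak in intron 1 (chr19:40679425-40679732), 7414 bp from the RARα peak, had 19 fragments and a fold of 3.89. With RA it would have needed 13 fragments, against 13.5 at the control rate. The BATF peak that spans the low-coordinate end of Entpd1 was stronger, with 47 fragments and a fold of 9.48 in the control and 24 fragments and a fold of 7.91 with RA, but had been annotated to the neighbouring Tctn3 alone. Entpd1 would thus count as a gene with BATF in both conditions if peaks were assigned by position.

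Art2b, the ecto-ADP-ribosyltransferase gene, lies at chr7:101575729-101585591 and had the strongest RARα peak of the 8 genes. The peak (chr7:101580903-101581555) was annotated as promoter, although its summit lay within the gene body, 5344 bp from the low-coordinate end. There 71 fragments were found in the control (55.5 to 89.6) with a fold of 13.8, the rank 5 by fold and 7 by p-value among 1172 peaks. Its IgG level was 4.21. No RARα RA peak was called. A call would have needed 12 fragments, or 15 at the raised IgG level, while the control rate would have given 70.4. The nearest RARα RA peak was 424045 bp from the gene, annotated to Fchsd2. Of the 5 RARα sites called in the control alone, this one had the widest gap between the fragments expected at the control rate and those needed, and at the others the gap was between 0.87 and 4.89 fragments, against 58.4 here.

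The RARα peak of Art2b enclosed a BATF peak at chr7:101580942-101581321 in the control, with 380 bp in common and summits 17 bp apart. BATF was found here in both conditions, with 30 fragments in the control (20.2 to 42.8) and 29 with RA (19.4 to 41.7), or 1.36 times the control when scaled to depth (0.788 to 2.35). The BATF fold was 5.10 without and 6.21 with RA. At the 3 sites where a RARα control peak and a BATF peak overlapped, then, the RARα peak was missing with RA and the BATF peak was kept, with a fold 1.08 (Nt5e promoter), 1.29 (Nt5e intron 3) and 1.22 (Art2b promoter) times that of the control. All 3 counting intervals of the fragment ratio for BATF included 1. A RARα peak missing with RA beside a BATF peak called in both conditions was the usual case, found at 415 of all 626 RARα control peaks that overlapped a BATF control peak (66.3%). The BATF fold was higher with RA at 117 of these 415 (28.2%).

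Art2b also had the most BATF peaks of the 8 genes, 6 in the control and 2 with RA. Apart from the promoter, a peak within the gene body at chr7:101583899-101584683 (19 fragments, fold 4.72) was classed as intergenic by the annotation, and 4 lay outside the gene. One was 24329 bp (23 fragments, fold 4.74) and another 14999 bp (18 fragments, fold 4.56) from it. The remaining pair, at 49015 and 50460 bp (25 and 27 fragments, folds of 5.14 and 4.77), had Clpb as the nearest protein-coding gene. The annotation named Art2a-ps, Mir139, Clpb or Pde2a beside Art2b at peaks of this region. Only the outermost was called again with RA, at chr7:101636015-101636261, with 15 fragments, a fold of 3.31 and 0.782 times the control level scaled to depth (0.387 to 1.52). At the 4 sites called in the control alone, a call with RA would have needed 11 or 12 fragments, and the control rate would have given 12.8 to 17.8. The fragments that were found there with RA are not given by the list.

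Cd38, an NAD-degrading ecto-enzyme and activation marker, lies at chr5:43868809-43912374. It had 1 BATF peak, in the control, and that lay 35716 bp outside the gene at chr5:43948090-43949225. It had 35 fragments (24.4 to 48.7) over an IgG level of 8, and a fold of 3.95 in the 17.2 percentile. The annotation named Prom1 and Fgfbp1 beside Cd38 for it, and Fgfbp1 was the nearest protein-coding gene. With RA a call would have needed 18 fragments, and the control rate would have given 24.9. No RARα peak was near, with the closest 1859332 bp away in the control and 7494903 bp with RA. The closest BATF RA peak, 43722 bp away with a fold of 9.12, was annotated to Bst1, which encodes the sister enzyme of Cd38. Within the gene and the 10 kb around it, Cd38 had no peak of either factor in any list.

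Adora2a, the main adenosine receptor gene of T cells, lies at chr10:75316877-75334792 and had 3 BATF control peaks, all within or at the gene. At the promoter, BATF held 25 fragments in the control and 15 with RA, or 0.844 times the control when scaled to depth (0.414 to 1.67), with folds of 4.28 and 4.13. In intron 1, at chr10:75320131-75320611, it held 29 and 16 fragments, or 0.776 times (0.394 to 1.48), with folds of 7.68 and 5.62. The last peak, at chr10:75326603-75326918 in a MIR3 SINE repeat, had 44 fragments (32.0 to 59.1) and a fold of 5.56 in the control and was not called with RA. There 17 fragments were needed and the control rate would have given 31.3, which was the widest such gap, 14.3 fragments, among the 7 BATF sites called in the control alone. At the other 6 sites the gap was between 0.5 and 6.87 fragments. The nearest RARα control peak, 12912 bp away and of a fold of 2.77, was annotated to Specc1l.

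Adora2b encodes the second receptor of this kind, with a lower affinity for adenosine, and lies at chr11:62248984-62266452. No peak of any list was assigned to it. The nearest BATF peaks were 14506 bp away in the control and 14770 bp with RA and were annotated to Zswim7 and Ttc19. The nearest RARα peaks were 100149 and 3502341 bp away.

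**Figure D3:**
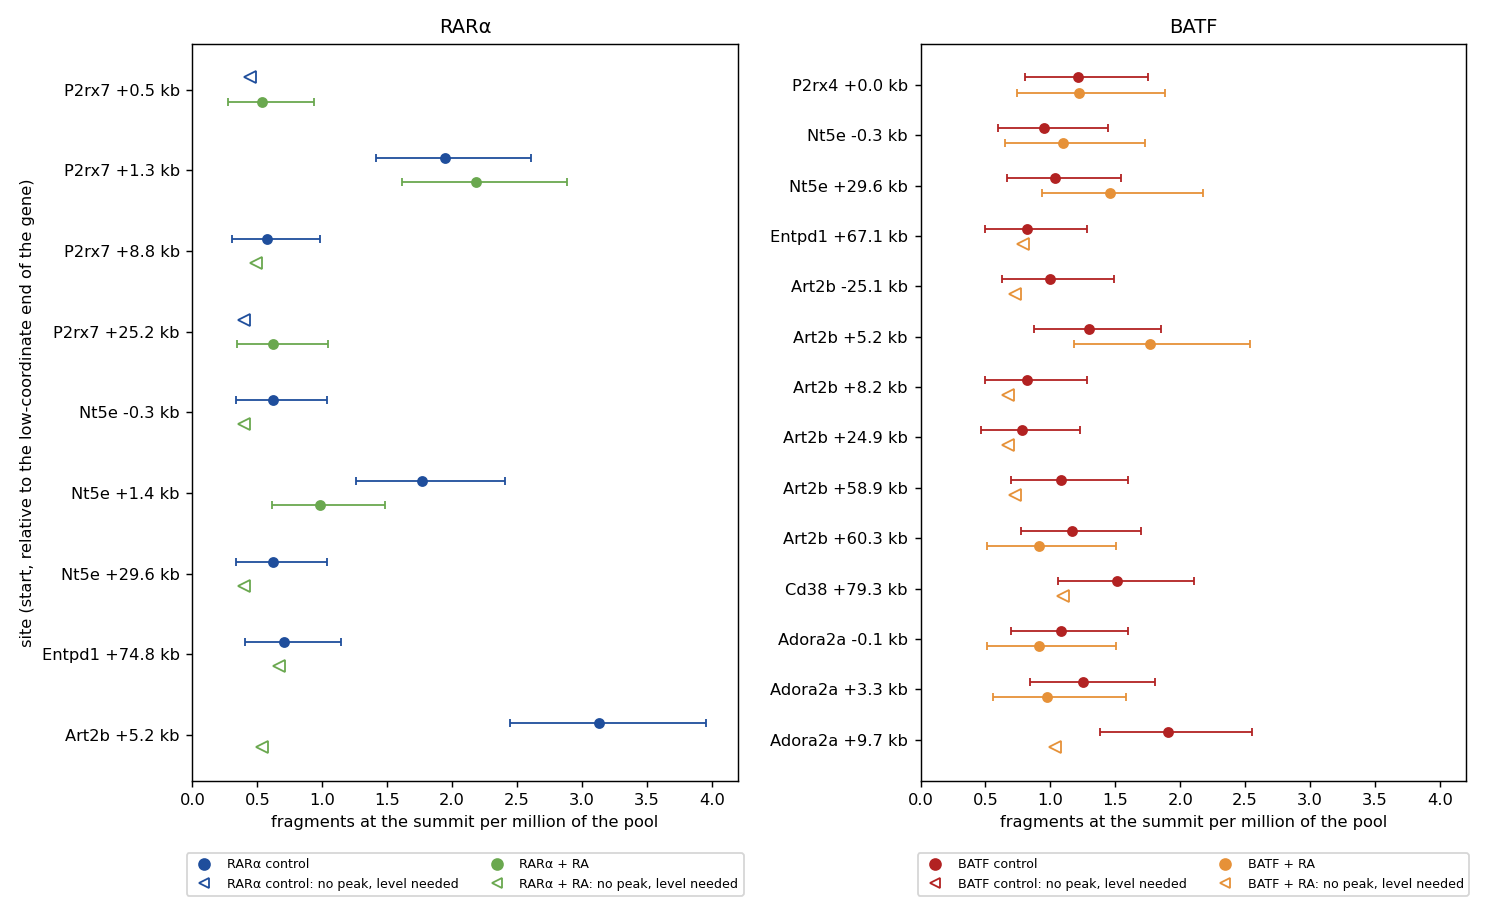
Fragments at the summit, scaled to the depth of the pool, at each site (rows, named by gene and by the start of the site relative to the low-coordinate end of the gene), for RARα (left) and BATF (right). Filled points are called peaks with exact Poisson 95% intervals, and open triangles mark the level that a call would have needed where none was made. The RARα control peak of Art2b lies far to the right of the level needed with RA, whereas most other sites called in 1 condition lie close to it.

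Compared with whole lists, the median fold of these genes' peaks was above that of the list for RARα in both conditions and for BATF with RA, and below it for BATF in the control. The median fold was 3.86 for the 7 RARα control peaks against 3.09 for the list, and 3.56 for the 4 RARα RA peaks against 2.87. For BATF it was 4.94 for the 14 control peaks against 5.40, and 6.20 for the 7 RA peaks against 5.29. The fragments at the summit had medians of 16 and 18 for RARα, against 13 and 11 in the lists, and of 25 and 18 for BATF, against 31 and 22. No BATF peak of the 8 genes had a fold above 8.26. By class, 5 of 7 RARα control peaks and 3 of 4 RARα RA peaks were promoter peaks, where the lists had 19.5% and 7.71%. Promoter was the class given by the annotation, and it included peaks inside genes. Among these were the P2rx7 control peak in exon 2, with its summit 8960 bp into the gene, and the P2rx7 RA peak in intron 1. The Nt5e site in intron 1 was another. For BATF the promoter class held 4 of 14 control and 4 of 7 RA peaks, against 58.7% and 64.6% in the lists, and 6 BATF control peaks were intergenic, all of Art2b or Cd38. A repeat was the detailed annotation of 2 of 7 RARα control peaks and 2 of 4 RARα RA peaks, against 23.3% and 44.7%. For BATF it was that of 4 of 14 control peaks and 1 of 7 RA peaks, against 8.8% and 6.91%. These are descriptions of few peaks that share genes.

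**Figure D4:**
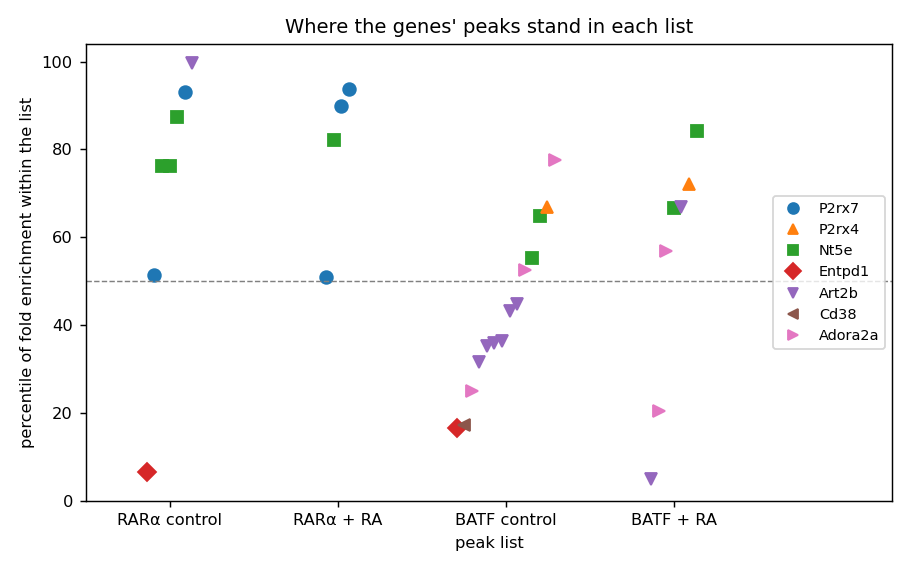
Percentile of fold enrichment of each peak of the 8 genes within its own list (columns), with a marker and colour per gene and a dashed line at the median of the list. For RARα, the peak of Entpd1 alone lies below the median, and the Art2b peak lies at the top, whereas the BATF peaks lie on both sides of the line.

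Following the study's methods, peaks of 2 lists were counted as shared when they lay within 5 kb. A BATF control peak lay near 4 of the 7 RARα control peaks (57.1%, Wilson 95% interval 25.1 to 84.2), against 61.9% of all RARα control peaks. Those 4 were the Art2b peak and the 3 of Nt5e, and 3 of them overlapped. With RA, 1 of 4 RARα peaks (25%, 4.56 to 69.9) had a BATF RA peak near it, against 16.4% in the list, and none overlapped. Counted from the side of BATF, a RARα peak lay near 4 of 14 control peaks and 1 of 7 RA peaks, against 7.16% and 1.22%. Between conditions, a RARα RA peak lay near 3 of the 7 RARα control peaks (42.9%, 15.8 to 75; all peaks 10.2%), and a control peak near 3 of the 4 RA peaks (all peaks 19.6%). The Nt5e control peaks at the promoter and in intron 1 were near the same RA peak. Likewise, the P2rx7 RA peak in intron 1 and its strongest RA peak were near the same control peak. The intervals treat such peaks as independent, so a distance from the share over all peaks was not tested. A BATF RA peak lay near 9 of the 14 BATF control peaks (64.3%, 38.8 to 83.7; all peaks 69.9%), and a control peak near each of the 7 RA peaks (all peaks 96.3%).

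The fold of the nearest RA peak was lower than that of the control peak in all 3 RARα pairs, with a median ratio of 0.814, where all pairs had 68.3% and 0.823. By fragments scaled to depth, however, only 1 of the 3 was lower (33.3%), with ratios of 1.12, 1.58 and 0.554. The 3 pairs hold 2 RA peaks, since the RA peak in intron 1 of Nt5e was also the nearest one to the control peak at its promoter, which it did not overlap. In the BATF pairs it was lower in 4 of 9 (44.4%, 18.9 to 73.3), with a median ratio of 1.01, where all pairs had 66.9% and 0.868. The 5 BATF pairs with a higher fold belonged to Nt5e, Art2b and P2rx4. These 9 pairs hold 7 RA peaks, as 2 RA peaks of Art2b were each nearest to 2 control peaks, so that the interval treats repeated peaks as independent. Over the 7 BATF sites called in both conditions, the fold was lower with RA at 3 and higher at 4.

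The other 60 genes of the pathway, which are receptors, nucleotidases, transporters and enzymes of adenosine and NAD, were counted in the same way. A RARα control peak was assigned to 6 of them (10%) and a RARα RA peak to 1 (1.67%), and BATF peaks to 38 (63.3%) in the control and 31 (51.7%) with RA. For all protein-coding genes these shares were 7.18%, 3.19%, 48.6% and 38.2%, in the same order. The 60 include Art2a, taken here as the gene that the annotation of the peaks names Art2a-ps. Its 5 BATF control peaks and 1 BATF RA peak were all assigned to Art2b as well. Without Art2a, 37 of 59 genes (62.7%) had a BATF peak in the control and 30 (50.8%) with RA. The 6 were P2rx3 (an ATP-gated channel, fold 3.52), P2ry12 (the ADP receptor of platelets and microglia, 2.35), Adora3 (an adenosine receptor, 3.09), Dpp4 (which anchors adenosine deaminase, 2.66), Panx1 (a channel that releases ATP, 2.52) and Nmnat2 (an NAD synthesis enzyme, 2 peaks, best 3.09). Each of these peaks had 11 to 14 fragments, fewer than the strongest peaks of P2rx7, Nt5e and Art2b. The peak of Adora3 was 78713 bp from the gene. P2ry12, which shared its peak with Med12l, was the one gene with a RARα RA peak too, with a fold of 2.53. The BATF control peaks of highest fold were annotated to Nmrk1 (22.8), P2ry12 (15.6) and Adk (13.4), all above those of the 8 genes, although the Nmrk1 peak was 94260 bp away and was also assigned to Trpm6. The P2ry12 peak was also assigned to Med12l, and the Adk peak to Ap3m1.

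Genes with the same 4 counts of peaks were looked for among the 21896 protein-coding genes. The pattern of Entpd1 (1 RARα and 1 BATF control peak, none with RA) was shared by 62 others. Of these, Tbc1d5 (10.9), Cox17 (6.21) and the neighbours Rbak, Spdye4a and Spdye4b (4.95 at 1 common peak) had the highest RARα folds, all above the 2.44 of Entpd1. The pattern of Art2b was shared by 14 others, led by Cutal and Phf19 (4.64 at 1 common peak), Lrch4 and Zcwpw1 (4.27 at 1 common peak) and Tubd1 (4.24), all below the 13.8 of Art2b. RARα in the control alone with BATF in both conditions, as at Art2b, was the most common arrangement of this kind, found at 992 (63.1%) of the 1572 genes with a RARα control peak, whereas 265 (16.9%) had RARα in both conditions as P2rx7 and Nt5e did.

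ChIP-seq holds no expression values, so the cell type could be compared with its label only by peaks at marker genes. BATF peaks were found at all 7 T cell genes (Cd8a, Cd8b1, Cd3e, Cd3d, Cd3g, Cd2 and Lck) in both lists, with 62 assignments in the control and 32 with RA, in which neighbouring genes can share a peak. Of all protein-coding genes, 48.6% had a BATF peak in the control and 38.2% with RA, and 7.18% had a RARα control peak. Cd4 had none in any list. Of the B cell genes Ms4a1, Cd79a and Cd79b, all 3 had a BATF peak in the control and 2 had one with RA, with 4 and 3 peaks, so that BATF peaks were not limited to genes of T cells. Of 4 myeloid genes (Csf1r, Lyz2, Itgam and Adgre1), 2 had a BATF peak in each list, with 2 peaks. RARα control peaks were found at 3 of the T cell genes, 1 of these B cell genes (Ms4a1) and 1 of the myeloid genes, and RARα RA peaks at none of them. Whether other cells added to the peaks of the 8 genes was not tested.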

How the data were processed

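RARα and BATF were immunoprecipitated from mouse CD8 T cells with or without RA. The authors aligned paired-end reads with Bowtie2, removed duplicates, called peaks with MACS 2.2.7.1 on mm10 (effective genome size 1870000000, p-value cutoff 0.001 for RARα and 1e-05 for BATF), and annotated them; HOMER is named in the submitters' processing notes. Each list pools 2 ChIP files of 22655611 (RARα control), 22475060 (RARα RA), 23110180 (BATF control) or 16424269 fragments (BATF RA), against 11410673 IgG fragments. Whether the 2 files are replicates is not given in the sources used here, nor is the RA status of the IgG cells. The deposited pileup is a signal, the fragments at the summit, which the authors' caller had scaled by 0.9875 in the BATF control list and which was turned back into fragments. The deposited fold is a ratio, from which the local IgG level was recovered. The deposited p-value and q-value are on the −log10 scale, and as the headers call q not calculated although values are present, q served only as an alternative. A Poisson upper tail gave the deposited p within 2% for at least 99.8% of peaks of each list. The fragments needed for a call are the lowest summit count that passes this rule at the IgG level of the other condition, scaled by the lowest levels of the 2 lists. This transfer had a median ratio of 1.0 at pairs with summits within 10 bp (5th to 95th percentile 0.975 to 1.03 over 24 RARα pairs and 0.984 to 1.18 over 1227 BATF pairs), but at the members' own sites called in both conditions, with summits up to 135 bp apart, the IgG level with RA was 0.726 to 1.38 times the one carried over. Summit counts also move with fragment length, which was 235, 249, 239 and 231 bp in the 4 lists.

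Gene positions came from a RefSeq table of GRCm38.p6, the assembly of mm10, which matched at least 99.5% of the annotated gene names. Shares have Wilson intervals, fragments exact Poisson and ratios exact conditional binomial intervals, all 95% and for counting error only. The members and gene lists were chosen with earlier results of these data known. Named genes were the 8 members, genes annotated beside them, up to 5 genes with equal counts of peaks by RARα control fold, pathway genes with a RARα peak, the 3 of highest BATF control fold, and the genes at nearest peaks. The genes at peaks within 10 kb of a member were added after seeing the data. Matching steps were tested on simulated data. Alternatives were stricter thresholds, other distances, assignment by position and other scales. Of the cell type marker genes, 1 is not reported here. Motifs were not analysed here, since no sequence was used. The work was done in Python 3.11.15 (scipy 1.17.1, pandas 2.3.3, numpy 2.4.6, matplotlib 3.10.9).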

Additional observations from a re-analysis of the deposited data

Results flagged for a closer look

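At the 3 sites where a RARα peak was called in the control alone and overlapped a BATF peak, the BATF peak was called in both conditions, with a fold with RA of 1.08 times that of the control at the Nt5e promoter, 1.29 times in Nt5e intron 3 and 1.22 times at the Art2b promoter. The same combination of calls was found at 66.3% of all RARα control peaks that overlapped a BATF control peak, with a higher BATF fold with RA at 28.2% of those. The 3 sites were picked out because the RARα call was lost while the BATF fold was higher, and whether the factors differed was not tested. A direction for RARα is not shown at the 2 Nt5e sites, where the control peaks had 14 fragments each, and the counting intervals of the BATF fragment ratio included 1 at all 3 sites.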

How the results depend on the processing

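Of 78 values recomputed under alternatives, 69 stayed within the limit set for them (at most 1.5 times for counts, the 95% interval for shares) and 9 went past it. The 69 include the BATF counts at a p-value of at most 1e-05. This was the calling cutoff of the BATF lists, so those counts could not change and say nothing about stability. The intervals of the shares are wide, as they rest on few peaks that share genes. A share that stayed within its interval therefore says little about stability. A fold of at least 5 left 2 RARα control peaks at 2 genes (P2rx7 and Art2b), 0 RARα RA peaks at 0 genes and 7 BATF control peaks. Limiting peaks to those within 10 kb of the gene left 9 BATF control peaks. The share of RARα RA peaks with a BATF RA peak was 0% when at least 1 bp had to overlap and 0% within 1 kb. By fragments scaled to depth in place of fold, 33.3% of the RARα pairs were lower with RA. The assignment of any peak within 10 kb by position was chosen after seeing the data. No paired analysis was possible because each condition is 1 pooled list, and no replicate could be left out. RARα sites with under 20 fragments lie close to the calling threshold at this depth, so a missing call there is not evidence of less binding.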
